A study of Mus musculus with 4 samples.

Results

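The kidney genes that carry fatty acids into the cell and burn them were followed after cisplatin. The set holds 38 genes of fatty acid uptake, activation, carnitine transfer and beta-oxidation, with the electron carriers and pyruvate dehydrogenase kinases tied to them, out of 29190 genes in the deposited count table. They were chosen by name, each symbol had a single row, and all 38 passed the filter on low counts that left 17419 genes for testing. Kidney RNA came from male C57 mice aged 8 weeks, with 2 libraries after an injection of cisplatin (30 mg/kg body weight) and 2 after physiological saline alone. Cisplatin, a platinum drug that crosslinks DNA, injures kidney tubules, and the comparison asks which transcripts differ after it. The protocol names killing at 24 h or 48 h after injection, and the labels do not tie the cisplatin libraries to either. Nor do they say whether a library pools several mice, so every SD, standard error and p-value below describes the spread between libraries. Standard errors and p-values also borrow from the spread of all tested genes.

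The proximal tubule, a segment rich in mitochondria and peroxisomes, relies on fatty acids as its main fuel for reabsorption. A fatty acid is taken up, joined to coenzyme A, passed into the mitochondrion as a carnitine ester, and then shortened by repeated rounds of dehydrogenation, hydration, a further dehydrogenation and thiolysis. Peroxisomes shorten very long and branched chains by a parallel set of enzymes, and the nuclear receptor PPAR alpha with its coactivator PGC-1 alpha drives many genes of both routes.

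Library totals ran between 20662475 and 27122403 counts, and no member had fewer than 341 counts in any library. Across tested genes, Pearson's r of log2 abundance was 0.993 between the cisplatin libraries, 0.992 between the saline libraries and at most 0.894 between groups. Defining markers of kidney were present: the proximal tubule phosphate transporter Slc34a1 and the thick limb protein Umod both had at least 11211 counts in every library.

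Transcripts of fatty acid uptake and oxidation fell almost throughout after cisplatin. Of the 38 genes 35 fell, 2 rose (Acsl5 and Pdk4) and Eci2 did not pass the test, which was edgeR's quasi-likelihood test over all genes at a Benjamini-Hochberg adjusted p under 0.05. The members were thus 92.1% lower and 5.26% higher, against 36.4% lower and 37.2% higher among all 17419 tested genes. At least a 2-fold fall was found for 24 members, or 63.2%, against 16.1% of all tested genes, and at least a 2-fold rise for Pdk4 alone, against 19.2%. The median log2 fold change of the members, cisplatin over saline, was -1.29, and that of all tested genes 0.04. Summed over the 38 genes, the level was 5408 and 5177 CPM in the cisplatin libraries, against 15210 and 15330 CPM in the saline libraries, where CPM is the count relative to a library size scaled by the trimmed mean of M values (TMM). The set made up 0.621 and 0.58% of the raw counts after cisplatin, against 1.31 and 1.38% after saline. In TMM-scaled CPM both cisplatin libraries lay below both saline libraries in 35 members and above them in 3. Among all tested genes 41.7% lay below and 44.7% above, so a lack of overlap alone does not set a gene apart here. In the FPKM that the authors deposited, the groups overlapped for Slc25a20 (17.2 and 16.8 after cisplatin, against 15.5 and 18.9 after saline). They also overlapped for Eci1 (35.8 and 30.9, against 35.3 and 37.8).

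The calls of the weakest falls rested on the scaling. With library size alone, which sets the median of all tested genes at 0.41, 30 members were called lower and 3 higher, against 24.2 and 52.3% of all tested genes. Slc25a20 then stood at a log2 fold change of 0.08, and Cpt1b, Acadl, Hadha and Eci1 at -0.03, -0.03, -0.17 and -0.04, none of them called. The member median minus that of all genes was -1.33 under both scalings.

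**Figure D1:**
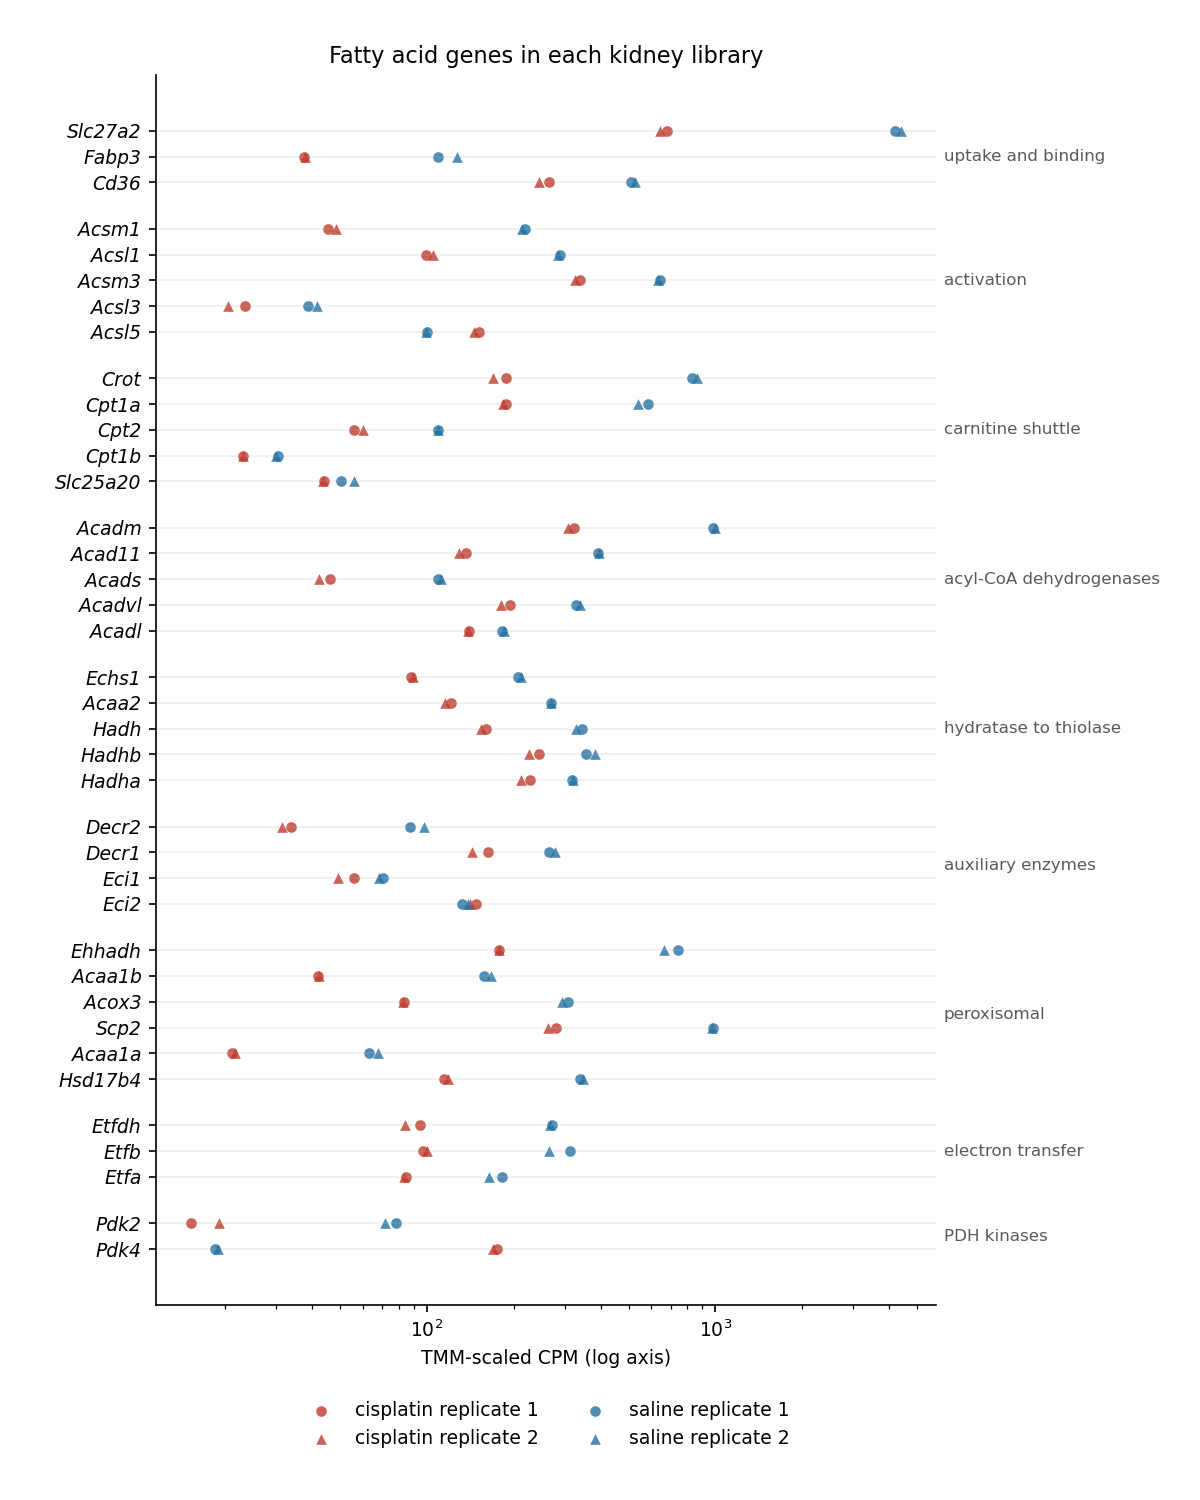
TMM-scaled CPM (log axis) of the 38 genes in each of the 4 libraries, grouped by step of the pathway. Red symbols are the cisplatin libraries and blue symbols the saline libraries, and red lies left of blue for 35 genes and right of it for Eci2, Acsl5 and Pdk4.

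The promoters of the 3 members with the largest falls and of the 2 that rose are shown because these genes mark the ends of the response. They come from RefSeq on GRCm38.p6 and run from 250 bases before to 50 bases after the start annotated there, in the direction of the gene. Gene positions given below are from GENCODE M21 and can differ. Its starts of Slc27a2 (126552407), Acsm1 (119607026) and Acsl5 (55251938) lie before the windows shown. Capitals mark matches on either strand to AGGTCA, the core that nuclear receptors such as PPAR alpha recognise. The windows are chr2:126552774-126553073 on the plus strand for Slc27a2, chr5:8997097-8997396 on the minus strand for Crot, chr7:119617562-119617861 on the plus strand for Acsm1, chr6:5496229-5496528 on the minus strand for Pdk4 and chr19:55253119-55253418 on the plus strand for Acsl5.
Slc27a2: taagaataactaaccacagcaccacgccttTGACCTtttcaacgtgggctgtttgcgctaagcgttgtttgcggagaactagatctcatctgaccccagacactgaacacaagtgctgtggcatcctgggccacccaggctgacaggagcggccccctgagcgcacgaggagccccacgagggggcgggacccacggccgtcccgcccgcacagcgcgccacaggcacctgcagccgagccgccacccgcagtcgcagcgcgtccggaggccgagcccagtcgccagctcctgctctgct
Crot: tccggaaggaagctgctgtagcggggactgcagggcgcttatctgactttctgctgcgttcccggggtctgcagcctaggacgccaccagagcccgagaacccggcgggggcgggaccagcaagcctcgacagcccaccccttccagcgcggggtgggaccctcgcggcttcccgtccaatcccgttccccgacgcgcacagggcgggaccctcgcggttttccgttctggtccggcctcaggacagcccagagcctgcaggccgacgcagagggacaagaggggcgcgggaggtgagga
Acsm1: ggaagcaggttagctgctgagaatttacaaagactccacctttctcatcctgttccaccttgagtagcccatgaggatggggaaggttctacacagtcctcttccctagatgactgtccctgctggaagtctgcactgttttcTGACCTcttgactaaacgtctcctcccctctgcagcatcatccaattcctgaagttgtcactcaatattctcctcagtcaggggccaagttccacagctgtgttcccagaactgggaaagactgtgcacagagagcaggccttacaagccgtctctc
Pdk4: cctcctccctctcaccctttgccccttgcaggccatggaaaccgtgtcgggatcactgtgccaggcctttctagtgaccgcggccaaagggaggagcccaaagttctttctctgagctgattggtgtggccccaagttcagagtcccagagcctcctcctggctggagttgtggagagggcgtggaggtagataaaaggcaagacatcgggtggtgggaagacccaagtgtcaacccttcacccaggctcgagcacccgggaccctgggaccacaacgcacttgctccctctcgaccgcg
Acsl5: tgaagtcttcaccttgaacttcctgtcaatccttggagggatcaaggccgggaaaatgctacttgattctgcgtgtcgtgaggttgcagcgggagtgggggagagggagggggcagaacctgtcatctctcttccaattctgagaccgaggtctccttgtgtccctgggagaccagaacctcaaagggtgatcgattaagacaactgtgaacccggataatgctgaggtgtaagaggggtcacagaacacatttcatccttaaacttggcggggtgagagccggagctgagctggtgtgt
The windows of Slc27a2 and Acsm1 held a match each, and these letters are not in the windows of Crot, Pdk4 and Acsl5. RefSeq windows were found for 34 of the 38 members, 36 windows in all. The core was present in 8 of the 36 windows (22.2%), those of Acadm, Acadvl, Acsm1, Cd36, Cpt1a, Echs1, Scp2 and Slc27a2, against 16.3% of 32851 windows of all genes. The same core repeated in tandem after a spacer of 1 base (direct repeat 1) was in 0 of the 36 and 0.0396% of all windows, and TCAAGGTCA, the element of estrogen-related receptors, which contains the core, in 0 of the 36 and 0.423% of all. A match describes letters and not a bound site, and elements farther from the start lie outside these windows.

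All 3 genes of uptake and binding fell. Slc27a2 (ENSMUSG00000027359.14, chromosome 2, 126552407 to 126588243, plus strand, GRCm38) encodes FATP2, a fatty acid transport protein that also activates very long chains. It had 679 and 642 CPM in the cisplatin libraries, against 4208 and 4386 CPM in the saline libraries. At 15.4% of the saline level this was the largest fall among the members (log2 fold change -2.70, SE 0.06; Benjamini-Hochberg adjusted p = 9.3e-19 in edgeR). By FPKM, the authors' deposited level per transcript length, it supplied 10.5 and 10.3% of the summed level of the set after cisplatin, against 23.8 and 24.6% after saline. Without it the summed CPM of the other 37 genes was 4729 and 4535 in the cisplatin libraries, against 11000 and 10950 in the saline libraries, or 42.2% of the saline level on average. Cd36, the scavenger receptor that helps long-chain fatty acids across the plasma membrane, fell to 266 and 244 CPM after cisplatin, against 509.6 and 527 CPM after saline. Fabp3, the fatty acid binding protein named for heart muscle, fell to 37.6 and 37.8 CPM, against 109 and 127 CPM after saline. The log2 fold changes were -1.02 (SE 0.06) for Cd36 and -1.65 (SE 0.07) for Fabp3. In neither gene did the groups overlap, while 41.7% of all tested genes lay lower without overlap.

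Among the acyl-CoA synthetases, which activate fatty acids, 4 genes fell and Acsl5 rose. Acsl1, the synthetase of long chains best known for feeding oxidation, fell to 99.4 and 105 CPM in the cisplatin libraries, against 289 and 284 CPM in the saline libraries, a log2 fold change of -1.48 (SE 0.06). Acsl5 (chromosome 19, 55251938 to 55297720, plus strand), a long-chain synthetase of mitochondria and endoplasmic reticulum, rose to 152 and 146 CPM, against 99.9 and 99.5 CPM after saline, a log2 fold change of 0.58 (SE 0.06; adjusted p = 1.9e-08). The groups of Acsl5 did not overlap, while 44.7% of all tested genes lay higher without overlap. Acsl5 was called higher under every setting tried. Acsl3, a synthetase of the endoplasmic reticulum and lipid droplets, fell to 23.5 and 20.4 CPM, against 38.6 and 41.8 CPM after saline. Both medium-chain synthetases fell as well, by unequal amounts. Acsm1 had 45.3 and 48.5 CPM in the cisplatin libraries, against 218 and 213 CPM in the saline libraries, which is 21.8% of the saline level. Acsm3 kept 52.3% of its saline level, with 340.3 and 326 CPM after cisplatin, against 641 and 634 CPM after saline.

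All 5 members of the carnitine shuttle fell, by unequal amounts, although Slc25a20 stood at 0.08 with library size alone. Cpt1a (chromosome 19, 3322334 to 3385733, plus strand), the malonyl-CoA sensitive transferase that gates entry of long chains, fell to 188 and 184 CPM after cisplatin, against 584 and 541 CPM after saline. Cpt2, which remakes the acyl-CoA inside, fell to 55.8 and 60.0 CPM, against 109 and 109 CPM. Slc25a20, the carnitine-acylcarnitine carrier of the inner membrane, had 43.8 and 43.7 CPM in the cisplatin libraries, against 50.5 and 55.9 CPM in the saline libraries. The log2 fold changes of these 3 genes were -1.59 (SE 0.06), -0.92 (SE 0.06) and -0.28 (SE 0.07), and the last passed at an adjusted p of 0.0012. Cpt1b, the muscle form of the outer enzyme, stood at 23.1 and 23.0 CPM, against 30.5 and 30.0 CPM after saline, a log2 fold change of -0.39 (SE 0.09) that was likewise lost with library size alone. Crot, the octanoyltransferase by which peroxisomes hand shortened chains to mitochondria, fell to 188 and 169.6 CPM, against 830.2 and 863 CPM. At 21.1% of the saline level, Crot had the largest fall of the set after Slc27a2.

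The acyl-CoA dehydrogenases open each round of mitochondrial oxidation and differ in the chain length they accept. All 5 members fell, with log2 fold changes between -1.64 and -0.39. Acadm (chromosome 3, 153922357 to 153944632, minus strand), the medium-chain enzyme, fell to 324 and 308 CPM in the cisplatin libraries, against 979.6 and 995 CPM in the saline libraries. Acads, the short-chain enzyme, fell to 46.0 and 42.2 CPM, against 109.6 and 112 CPM. Acadvl, the very long-chain enzyme, fell to 194 and 181 CPM, against 328 and 339 CPM. Acadl, the long-chain enzyme, changed least, with 140.1 and 139 CPM after cisplatin, against 182 and 185 CPM after saline. Its log2 fold change of -0.39 (SE 0.06; adjusted p = 3.9e-06) compares with -1.64 (SE 0.06) for Acadm, -1.33 (SE 0.06) for Acads and -0.83 (SE 0.06) for Acadvl. The shift could be read within each library on the FPKM scale, where the ratio of Acadm to Acadl was 2.16 and 2.07 after cisplatin, against 5.03 and 5.05 after saline. Acad11, a dehydrogenase of peroxisomes and mitochondria that also handles hydroxylated chains, fell to 137 and 129 CPM, against 391 and 395 CPM.

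The 5 mitochondrial enzymes from hydratase to thiolase fell, with log2 fold changes between -1.24 and -0.54. Hadha and Hadhb, the subunits of the trifunctional protein that completes the round for long chains, had log2 fold changes of -0.54 (SE 0.06) and -0.65 (SE 0.06). Hadha stood at 227 and 212 CPM in the cisplatin libraries, against 317 and 321 CPM in the saline libraries, and Hadhb at 245 and 226 CPM, against 356 and 381 CPM. The soluble enzymes of shorter chains fell further, and none of their groups overlapped, while 41.7% of all tested genes lay lower without overlap. Echs1, the short-chain hydratase, fell to 87.8 and 89.4 CPM, against 207 and 212 CPM. Hadh, the hydroxyacyl-CoA dehydrogenase, fell to 160.1 and 154 CPM, against 344 and 328 CPM. Acaa2, the mitochondrial thiolase, fell to 121 and 116 CPM, against 269 and 269 CPM. These 3 genes kept between 42.3 and 46.7% of the saline level, against 68.9% for Hadha and 63.9% for Hadhb.

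Auxiliary enzymes that make unsaturated chains fit for oxidation included the only member that did not pass. Eci2 (chromosome 13, 34977748 to 35027096, minus strand), an enoyl-CoA isomerase of peroxisomes and mitochondria, had 148 and 141 CPM after cisplatin, against 132 and 139 CPM after saline. Its log2 fold change was 0.09 (SE 0.06; adjusted p = 0.16), and it passed as higher with library size alone (0.46) and with upper-quartile scaling (0.21), which put the median of all genes at 0.41 and 0.16. Eci1, the mitochondrial isomerase, had 55.9 and 49.1 CPM, against 70.3 and 68.5 CPM, a log2 fold change of -0.40 (SE 0.07) lost with library size alone. The dienoyl-CoA reductases both fell. Decr1 of mitochondria fell to 163 and 143 CPM, against 264 and 277 CPM, and Decr2 of peroxisomes to 33.9 and 31.5 CPM, against 87.6 and 97.8 CPM. Decr2 kept 35.2% of its saline level and Decr1 56.5%.

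The 6 peroxisomal enzymes all fell, each at least 2-fold, with log2 fold changes between -1.98 and -1.56. Ehhadh (chromosome 16, 21761287 to 21787807, minus strand), the L-bifunctional enzyme and a classic PPAR alpha target in rodents, fell to 178 and 178 CPM in the cisplatin libraries, against 741 and 665 CPM in the saline libraries. Hsd17b4, the D-bifunctional enzyme, fell to 115 and 118 CPM, against 338 and 348 CPM. Acox3, an oxidase of branched chains, fell to 83.3 and 82.9 CPM, against 309 and 293 CPM. Scp2, which encodes a sterol carrier protein and a thiolase from a shared locus, fell to 280 and 263 CPM, against 981 and 977 CPM. No cisplatin library came near a saline library in any of these genes. The 3-ketoacyl-CoA thiolase Acaa1a fell to 21.1 and 21.6 CPM after cisplatin, against 62.8 and 67.7 CPM after saline. Its near copy Acaa1b fell to 42.1 and 42.2 CPM, against 158 and 166 CPM. The summed FPKM of the 6 peroxisomal genes over that of the 5 mitochondrial hydratase to thiolase genes was 0.64 and 0.66 after cisplatin, against 1.22 and 1.18 after saline. This ratio is taken within a library and so does not depend on the scaling between libraries. The other members with a known peroxisomal role did not all follow, since Crot, Acad11 and Decr2 stood at -2.24, -1.56 and -1.51 but Eci2 at 0.09.

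**Figure D2:**
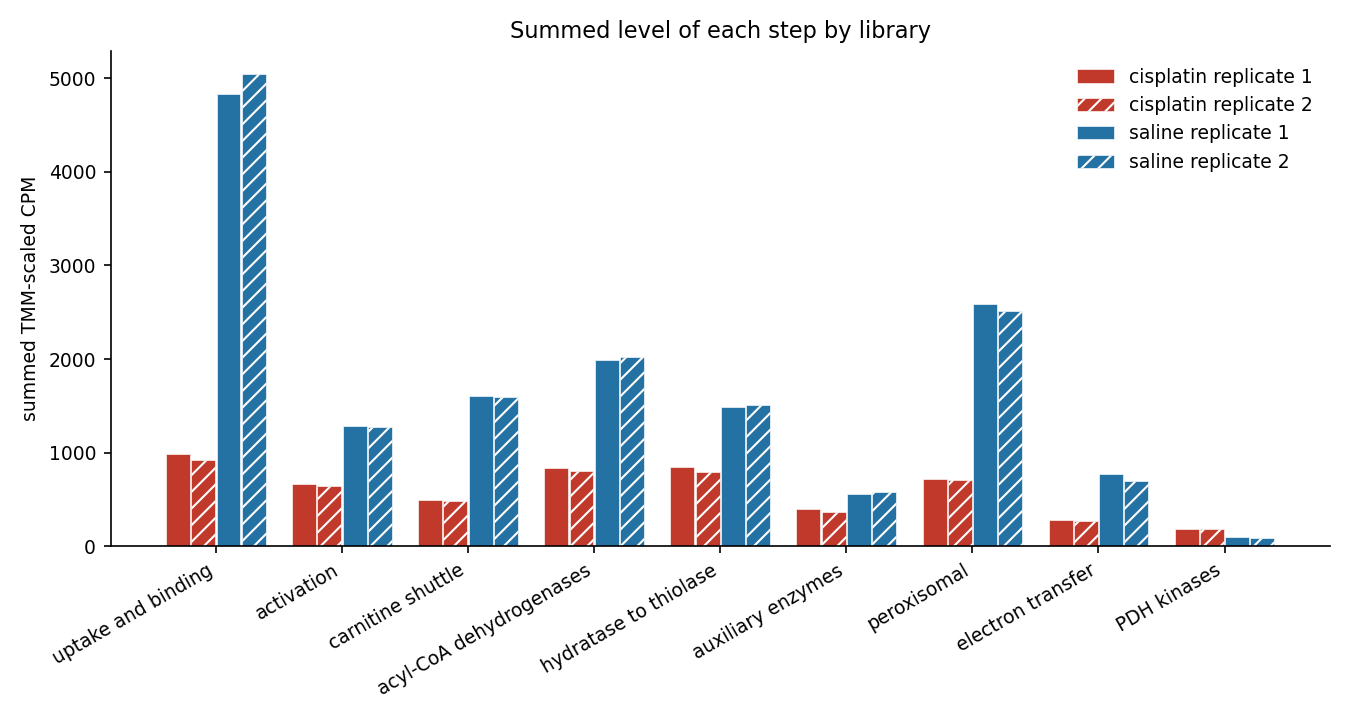
Summed TMM-scaled CPM of the members of each step in the 4 libraries, with cisplatin bars (red) left of saline bars (blue). Uptake and binding stood at 983 and 925 CPM after cisplatin, against 4827 and 5040 after saline, peroxisomal enzymes at 719 and 707 against 2589 and 2517, and the pyruvate dehydrogenase kinases were the only step with taller red bars.

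Electrons from the dehydrogenases pass through the flavoprotein ETF and its oxidoreductase to ubiquinone, and these transcripts fell too. Etfa fell to 84.5 and 83.1 CPM in the cisplatin libraries, against 183 and 164 CPM in the saline libraries. Etfb, which encodes the partner subunit and shares exon sequence with another gene, fell to 96.6 and 99.8 CPM, against 314 and 266 CPM. Etfdh, the oxidoreductase, fell to 94.6 and 84.1 CPM, against 271 and 266 CPM. The groups did not overlap in any of the 3, while 41.7% of all tested genes lay lower without overlap. Log2 fold changes of the 3 genes were -1.05 (SE 0.06), -1.56 (SE 0.07) and -1.59 (SE 0.06).

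The pyruvate dehydrogenase kinases, which switch off entry of pyruvate into the citric acid cycle and so favour fatty acids as fuel, moved apart. Pdk4 (ENSMUSG00000019577.4, chromosome 6, 5483351 to 5496309, minus strand), the kinase induced by fasting, rose to 174 and 170.1 CPM in the cisplatin libraries, against 18.5 and 18.8 CPM in the saline libraries. This was a 9.23-fold rise (log2 fold change 3.21, SE 0.06; Benjamini-Hochberg adjusted p = 4.8e-19 in edgeR). Pdk2 fell to 15.3 and 19.1 CPM, against 78.1 and 71.5 CPM, a log2 fold change of -2.12 (SE 0.09). Pdk4 was the member with the lowest FPKM in saline kidneys, at 3.08 ± 0.255 (SD, n = 2), and ranked 19 of 38 in cisplatin kidneys, at 34.3 ± 1.02. The deposited FPKM were not scaled by TMM here, so they differ between groups by another factor than the CPM.

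**Figure D3:**
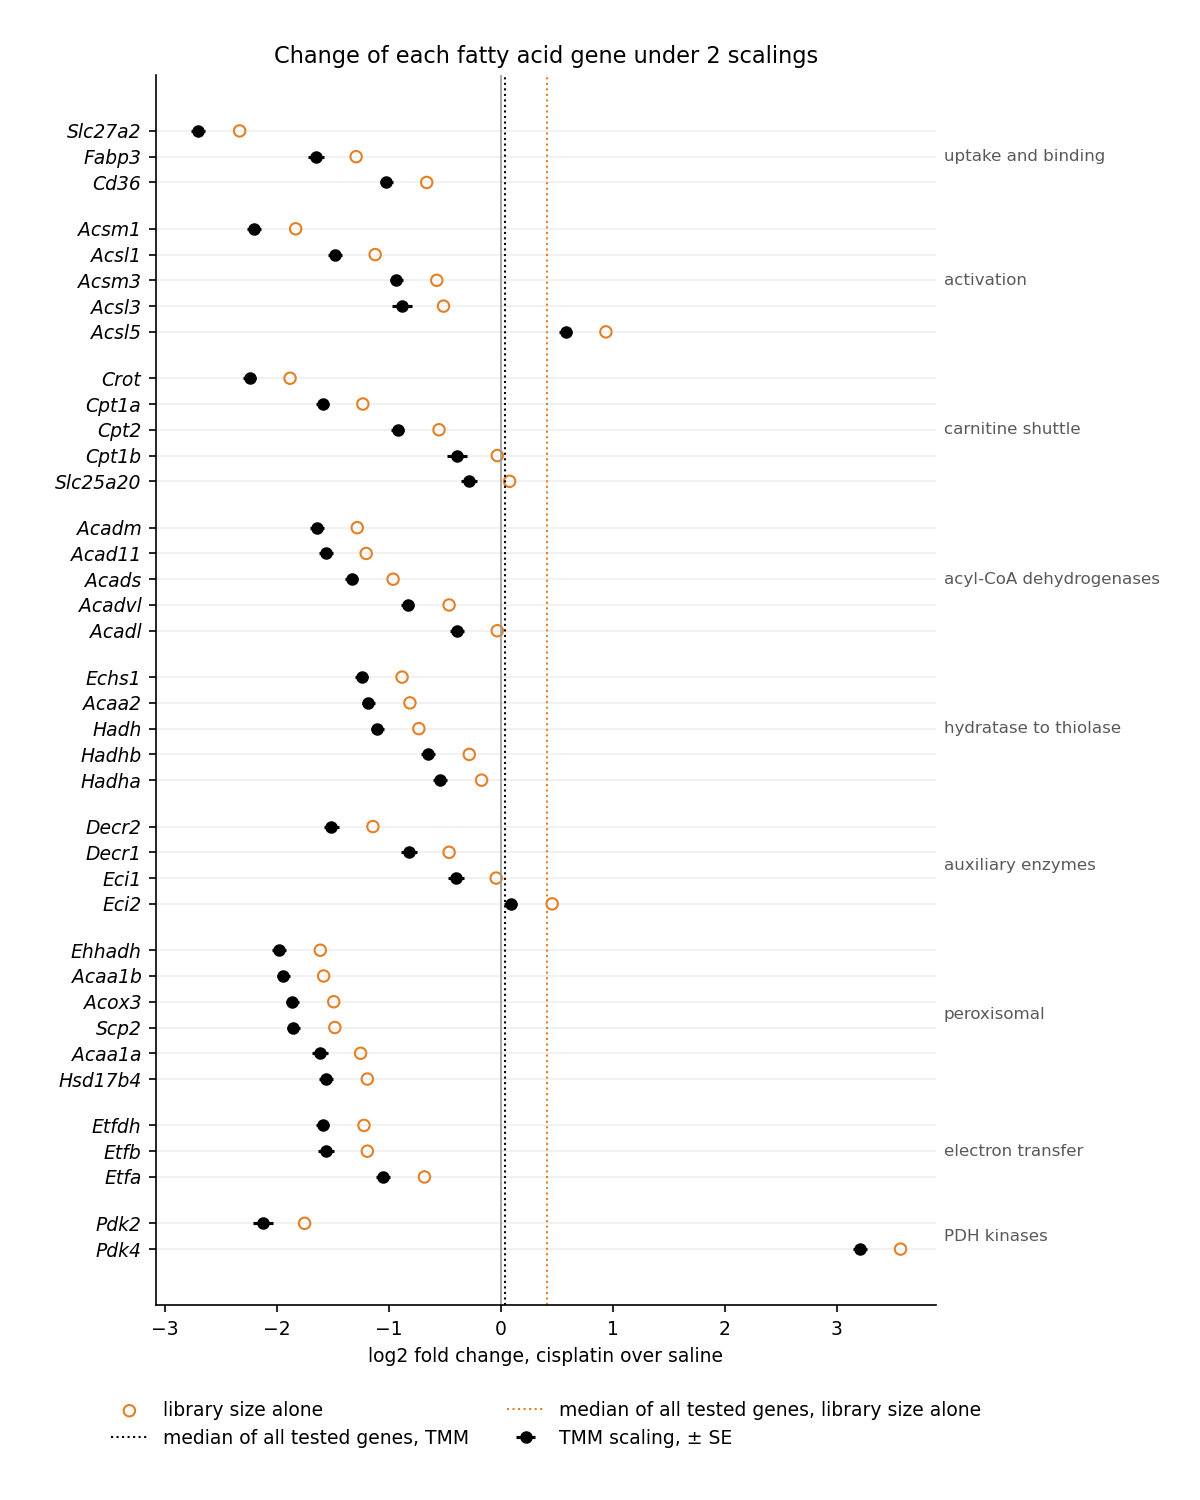
Log2 fold change, cisplatin over saline, of each gene with TMM scaling (black, ± SE) and with library size alone (open orange), and dotted lines at the median of all tested genes under each scaling (0.04 and 0.41). Every gene shifts right by a like amount with library size alone, and Slc25a20, Cpt1b, Acadl and Eci1 then lie near 0.

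Related genes changed their balance, which can be read within a library and is free of the scaling between libraries. The FPKM ratio of Pdk4 to Pdk2 was 7.36 and 5.74 in the cisplatin libraries, against 0.152 and 0.17 in the saline libraries. Acsl5 over Acsl1 was 2.02 and 1.83, against 0.457 and 0.462, so Acsl5 exceeded Acsl1 per length after cisplatin and stood below it after saline. Cpt1b over Cpt1a was 0.182 and 0.185, against 0.0775 and 0.0823. Cpt1a thus had the higher deposited value of the pair in every library, but 81.4% of the exon length of Cpt1b is shared with another gene. Smaller shifts were seen for Acsl3 over Acsl1 (0.249 and 0.203 after cisplatin, against 0.141 and 0.155 after saline) and for Etfa over Etfb (0.545 and 0.52, against 0.363 and 0.385). Acaa1b over Acaa1a was 2.08 and 2.04 after cisplatin, against 2.62 and 2.56 after saline. Hadha over Hadhb stood at 0.481 and 0.485, against 0.461 and 0.436, a difference in log2 of 0.11. In all 7 ratios the groups did not overlap. Such separation was common in these libraries, since in TMM-scaled CPM 41.7% of all tested genes lay below and 44.7% above. The share among ratios of other gene pairs was not computed. With 2 libraries a group an exact permutation test cannot give a two-sided p below 0.33, so none was tested.

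**Figure D4:**
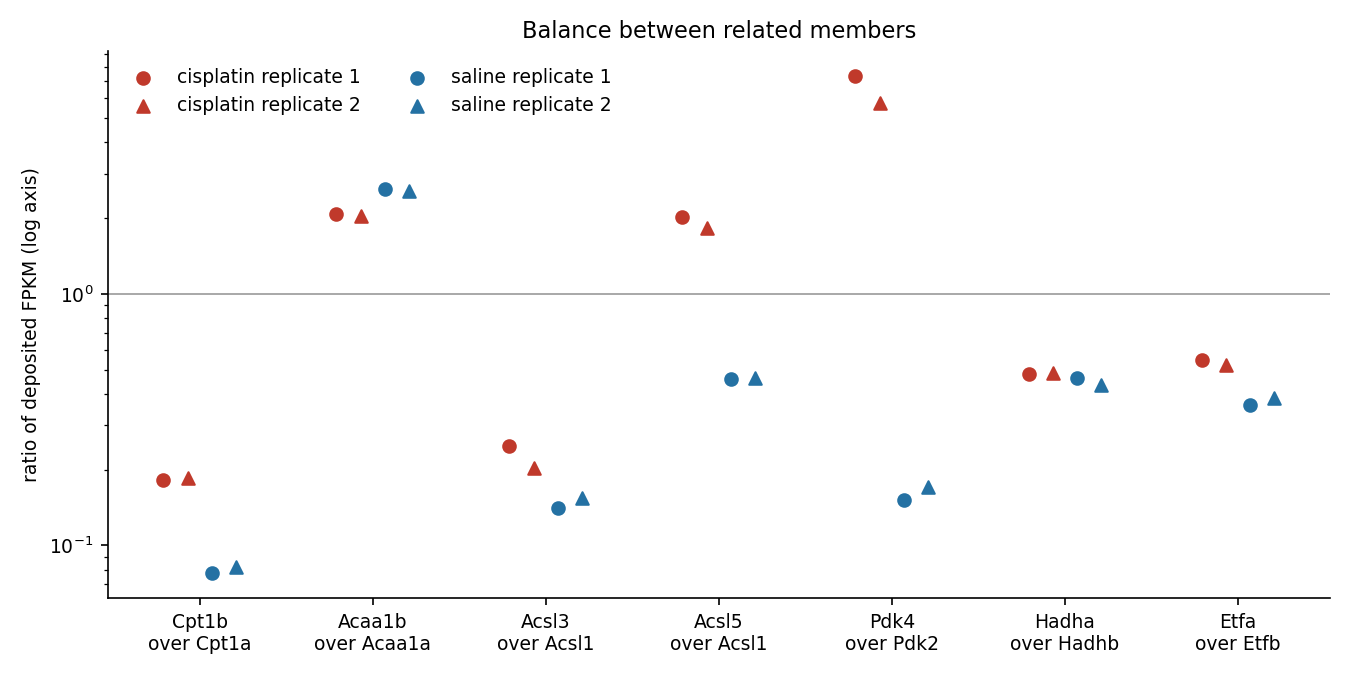
Ratio of the deposited FPKM of related members in each library (log axis, line at 1), with the cisplatin libraries (red) left of the saline libraries (blue) for each pair. Pdk4 over Pdk2 and Acsl5 over Acsl1 lie above 1 in both cisplatin libraries and below 1 in both saline libraries.

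By FPKM, used here to rank genes within a group and not scaled by TMM, Slc27a2 was the highest member in both groups. It stood at 157 ± 8.15 in cisplatin kidneys and 848 ± 82.3 in saline kidneys (SD, n = 2). Acadm came next in both, at 107 ± 4.98 after cisplatin and 277.5 ± 22.0 after saline. Below them the order changed. Hadhb (78.5 ± 5.38) and Etfb (78.4 ± 0.813) followed in cisplatin kidneys, within their spread of each other, and Scp2 (212 ± 13.9) and Etfb (191 ± 9.36) in saline kidneys. Eci2 ranked 6 of 38 after cisplatin, against 24 after saline, while Crot ranked 14 against 5 and Ehhadh 15 against 6.

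Other genes of fatty acid handling were counted as well. Of 48 listed genes 46 were tested, of which 37 fell and 6 rose, while 3 missed the threshold; their median log2 fold change was -1.29. Acox2, the oxidase of bile acid precursors and branched chains, had 18.4 and 18.4 CPM in the cisplatin libraries, against 127 and 133 CPM in the saline libraries. Hacl1, the lyase of alpha-oxidation, fell to 16.2 and 16.2 CPM, against 108 and 109 CPM, and Acss1, the mitochondrial acetyl-CoA synthetase, to 62.0 and 61.7 CPM, against 327 and 326 CPM. Acsm2, a medium-chain synthetase, fell to 1722 and 1678 CPM, against 5805 and 6001 CPM. The genes that rose included Cpt1c, a brain form of the carnitine transferase, with 8.14 and 9.02 CPM against 0.866 and 0.492 CPM, and the thioesterase Acot2, with 48.4 and 46.5 CPM against 25.9 and 27.2 CPM. Fabp4, the binding protein of adipocytes and capillary endothelium, rose to 54.2 and 52.4 CPM, against 35.6 and 36.7 CPM, and the arachidonate-preferring synthetase Acsl4 to 139 and 133 CPM, against 111 and 103 CPM. Fabp1, the liver form, had too few counts to be tested. All 5 ketone body enzymes fell, against 36.4% of all tested genes, with a median of -2.37. Oxct1, which lets cells burn ketone bodies, fell to 406 and 393 CPM, against 2068 and 2067 CPM. The thiolase Acat1 had a log2 fold change of -2.13 and the hydroxybutyrate dehydrogenase Bdh1 one of -2.72.

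Regulators of the pathway fell more often than they rose, with 15 lower, 4 higher and 3 not passing among 22. This was 68.2% lower and 18.2% higher, against 36.4% lower and 37.2% higher among all tested genes. Ppara, the gene of PPAR alpha, had 21.2 and 22.0 CPM in the cisplatin libraries, against 91.7 and 91.3 CPM in the saline libraries, a log2 fold change of -2.08 (SE 0.07). Ppargc1a, which encodes PGC-1 alpha, fell to 44.4 and 48.2 CPM, against 133 and 134 CPM, a log2 fold change of -1.52 (SE 0.06). The falls with the smallest p were those of the orphan receptor Esrrg, at 17.8 and 18.3 CPM against 124 and 119 CPM, and of Hnf4a, a receptor that maintains proximal tubule identity, at 120.1 and 118 CPM against 725 and 693 CPM. The Kruppel-like factor Klf15 had the largest fall of the listed regulators, to 11.2 and 11.1 CPM, against 81.0 and 75.2 CPM (log2 fold change -2.81). The deacetylase Sirt1 rose to 58.7 and 53.0 CPM, against 36.1 and 40.4 CPM. The receptor gene Ppard rose as well, with a log2 fold change of 0.86. The catalytic subunits of AMP kinase moved apart. Prkaa2 fell to 108 and 106 CPM, against 381 and 375 CPM (log2 fold change -1.82), and Prkaa1 had a small rise, to 57.9 and 56.7 CPM, against 50.8 and 49.4 CPM (log2 fold change 0.19).

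Known PPAR alpha targets outside oxidation were split, with 8 lower (53.3%), 5 higher (33.3%) and 2 not passing among 15 tested of 17 listed. Among all tested genes 36.4% were lower and 37.2% higher, so rises were no more frequent in this list than over all genes. Plin2, a lipid droplet coat protein, rose to 541 and 516 CPM in the cisplatin libraries, against 104 and 103 CPM in the saline libraries, and Cidec, another droplet protein, had 5.48 and 6.67 CPM, against 0.108 and 0.041 CPM (2 and 1 counts). The uncoupling protein gene Ucp2 rose to 66.5 and 74.4 CPM, against 20.8 and 20.2 CPM, and the lipase inhibitor Angptl4 to 76.3 and 76.1 CPM, against 52.5 and 48.5 CPM. Falls included G0s2, an inhibitor of droplet lipolysis, at 7.17 and 7.91 CPM against 38.2 and 38.7 CPM, the pantetheinase Vnn1, at 72.7 and 69.99 CPM against 161 and 158 CPM, the glycerol channel Aqp7, at 9.45 and 10.4 CPM against 30.4 and 32.1 CPM, and the omega-hydroxylase Cyp4a31, at 78.9 and 77.4 CPM against 163 and 159 CPM.

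Around the pyruvate dehydrogenase complex, 11 of 12 listed genes fell (91.7%, against 36.4% of all tested genes) and Pdp1 rose. Pdp1, a phosphatase that reactivates the complex, had 29.1 and 29.0 CPM after cisplatin, against 13.04 and 14.01 CPM after saline. Pdp2, the other phosphatase, fell to 13.3 and 11.9 CPM, against 89.2 and 82.0 CPM, a log2 fold change of -2.76 (SE 0.08). The complex subunit genes Dld and Dlat had log2 fold changes of -1.47 and -1.19, and the complex regulator Pdpr of -1.32. The remaining kinases Pdk1 and Pdk3 stood at -1.23 and -0.99, so Pdk4 was the only kinase gene of the 4 that rose.

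Markers of the cell types in the kidney moved in the same libraries. All 15 proximal tubule markers fell, with a median log2 fold change of -2.43 and summed levels of 18460 and 17920 CPM after cisplatin, against 48460 and 46650 CPM after saline. Slc27a2 alone of the members lay below that median. The summed CPM of the members over that of these markers was 0.293 and 0.289 after cisplatin, against 0.314 and 0.329 after saline. This ratio rests on 1 marker, the androgen-regulated Kap, which had 14781 and 14242 CPM after cisplatin, against 25836 and 23592 CPM after saline. Without Kap, a choice made after its values were seen, the ratio was 1.47 and 1.41 after cisplatin, against 0.672 and 0.665 after saline, so that its direction turned. In whole kidney, fewer tubule cells and less RNA per tubule cell cannot be told apart. All 10 markers of thick limb and distal tubule fell (summed 2763 and 2680 CPM after cisplatin, against 8543 and 8648 CPM after saline), and of 10 collecting duct markers 7 fell and 2 rose (208 and 215 CPM, against 439 and 438 CPM). Markers of other cells rose for the most part, with 8 of 8 for fibroblast and mural cells (1499 and 1498 CPM, against 462 and 477 CPM), 6 of 8 for endothelium (827 and 839 CPM, against 595 and 603 CPM) and 5 of 6 for podocytes (572 and 601 CPM, against 391 and 384 CPM), and 1 fell in each of the last pair of lists. For macrophages and monocytes 8 of 11 rose and 1 fell (215 and 233 CPM, against 94.5 and 102.5 CPM), and all 7 tested of 10 neutrophil markers rose (35.4 and 33.9 CPM, against 5.36 and 3.32 CPM). Of 8 lymphocyte markers 5 were tested, and 2 of them rose while 3 were not called. Their summed levels were low (4.85 and 4.63 CPM, against 3.79 and 2.5 CPM). Among all tested genes 37.2% were called higher and 36.4% lower, so the 40% of lymphocyte markers that rose was near the share of all genes. Endothelium and macrophages also express Cd36 and Fabp4, and the part of these cells in any member's change was not tested.

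Fat and muscle use many of the same genes. Of 9 adipocyte markers 2 (Lipe and Pnpla3) were tested and both rose (summed 13.4 and 14.9 CPM after cisplatin, against 8.22 and 9.26 CPM after saline), while the defining Adipoq had 2 and 1 counts, against 1 and 0. Of the 7 striated muscle markers in the count table only Ttn was tested, and it fell (summed 2.91 and 3.43 CPM, against 26.2 and 25.7 CPM), while Acta1 had 0 and 0 counts, against 0 and 1. Among all tested genes 37.2% were called higher and 36.4% lower, and these lists held too few tested markers to compare with those shares. Of the muscle forms, Cpt1b had 547 to 731 counts and Fabp3 891 to 3098 counts in these libraries. The identity of the Cpt1b counts is uncertain, since most of its exon length is shared with another gene.

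Some members share sequence with other genes, and the sources used here do not say how the authors' counting treated such reads or strand. In GENCODE M21, exons of 18 members overlap another gene, on the opposite strand for 15 of them and on the same strand for 5. Cpt1b shares 81.4% of its exon length with Gm44502 on the same strand, and Gm44502 has no row in the deposited count table. The level of Cpt1b, its small fall and the ratio of Cpt1b to Cpt1a are thus uncertain in their identity. Etfb shares 53% of its exon length with Gm45233 on the same strand, which has no row there either, and 39.6% of the 75-base stretches of Etfb recur in Gm45233. The level of Etfb, its fall and the ratio of Etfa to Etfb carry the same uncertainty. On the opposite strand Dvl2 overlaps 42.9% of Acadvl and Eri2 overlaps 39.7% of Acsm3. Dvl2 had 210 and 252 counts after cisplatin, against 178 and 244 after saline, and Eri2 275 and 271, against 226 and 280. The lowest counts of Acadvl (4603) and Acsm3 (8069) were higher. Since the treatment of shared reads is not known, these counts do not show how many reads were shared or lost. Of stretches of 75 bases in Acaa1b transcripts 24.4% recur in its near copy Acaa1a, and of those in Scp2 and Fabp3 25.6 and 24.3% recur in the pseudogenes Scp2-ps2 and Fabp3-ps1. The pseudogenes had at most 4 counts in any library, which likewise does not show how many reads were shared. The separate levels of Acaa1a and Acaa1b are therefore less certain than their common fall.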

How the data were processed

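Ribosomal RNA was removed from kidney RNA, and directional libraries were read as 150 nt pairs, per the labels' protocols. Raw read counts per gene were deposited by the authors for 29190 genes, together with FPKM values for 29157 of them. Per the submitters' processing notes, bcl2fastq, TopHat2, edgeR and the build GRCm38 were used. Which program counted reads, with which annotation and strand setting, and what became of multiply mapped reads, is not stated in the sources here. Groups came from the treatment label.

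The counts of all genes were fitted with edgeR 4.0.16 in R 4.3.3: filterByExpr left 17419 genes, libraries were scaled by TMM (factors 1.15 and 1.12 for cisplatin, 0.861 and 0.901 for saline), and the quasi-likelihood F test had 2 residual degrees of freedom. Calls were made at a Benjamini-Hochberg adjusted p under 0.05, taken over all tested genes. Standard errors were taken from the fold change and its F statistic. They thus rest on a dispersion moderated over all tested genes and not on the spread of that gene's libraries alone. Changes of total RNA per cell are not visible on this scale. FPKM served for levels between genes and as an alternative (limma 3.58.1, pseudocounts 0.1 and 1). Further alternatives were DESeq2 1.42.0, other scalings and filters, a block on replicate number, and leaving out each library.

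The members and lists were chosen with earlier results of these data known. The text names every member, up to 4 genes per direction of each other pathway list by smallest p, and Ppara, Ppargc1a and Fabp1, except for a few genes that are not reported here; Pdk1, Pdk3, Prkaa2 and Kap were added after their values were seen. Promoters shown are those of the largest falls and rises. Replicates were compared first: the chi-square of their counts over its degrees of freedom was 11.5 for cisplatin and 36.6 for saline, so no library was counted as a copy. The biological coefficient of variation was 6.42%. Depth was 20662475 to 27122403 counts per library. Positions and overlaps came from GENCODE M21 (GRCm38). Protein sequences were not used here. Python 3.11.15 and matplotlib 3.10.9 served for summaries and plots.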

Additional observations from a re-analysis of the deposited data

How the results depend on the processing

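Of the 35 members that fell, 29 were called lower under every alternative run, and Acsl5 and Pdk4 were called higher under every one. The exceptions were Cpt1b, Slc25a20, Acadl, Hadha and Eci1, not called with library size alone or with limma-trend on FPKM, and Hadhb, not called with limma-trend on FPKM (29 lower and 2 higher at either pseudocount). Slc25a20 changed sign, to 0.08, with library size alone. The member median of -1.29 became -0.92 with library size alone and -1.17 when scaled by upper quartile, and on FPKM it was -1.01 (pseudocount 0.1) and -0.98 (pseudocount 1). The log2 change of the summed member level, -1.53, became -1.16 with library size alone and -1.41 when scaled by upper quartile. Over all genes 6333 were lower, and on FPKM 3804 and 3784 at those pseudocounts; library size alone gave 4207 lower and 9110 higher. Leaving out each library in turn left 35 members lower and 2 higher, with medians between -1.32 and -1.26. With an arm of 1 library, that library is assumed to vary like the others. The replicate numbers did not pair the libraries (correlation of same-numbered deviations -0.02), and the replicate block also gave 35 lower and 2 higher. The counts of the other pathway lists stayed within 1.5 times under all alternatives. With 2 libraries a group, small differences such as that of Eci2 were not settled, and the call of Eci2 moved with the scaling. The log2 change of the summed members over the summed proximal tubule markers, -0.14, was 1.10 without Kap, an alternative chosen after seeing the data.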
